A study of Danio rerio with 48 samples.

Results

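The 2 genes described here are the zebrafish cathepsins CTSB (ENSDARG00000055120) and ctsll (ENSDARG00000011701), 2 of 32520 gene IDs counted in single whole embryos. They were chosen by gene ID and for what earlier results of the same data had shown: CTSB as an abundant gene that differed between the strains, and ctsll as a gene that rose with stage. The CTSB difference between strains and the ctsll change with stage are therefore given as descriptions, without a test. The tests below concern what the choice did not use: the change of CTSB with stage, the strain difference of ctsll, the strains' changes over time set against each other, and the biological replicates.

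Embryos of the laboratory strains AB and TL came from natural spawning and were kept at 28.5 °C until 2.25, 3.25, 4.25 or 5.25 hours post fertilisation (hpf), without any treatment or allele named in the labels. Each of the 8 strain and stage groups held 6 embryos, 48 in all. Embryos 1 to 3 of a group made up biological replicate 1 and embryos 4 to 6 biological replicate 2, and each biological replicate had its own sequencing runs. The libraries were made by CEL-seq2, which barcodes the 3′ ends of polyadenylated RNA in each sample, and each stage had its own library index, so that stage and library cannot be told apart.

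Cathepsins are proteases that work mainly inside lysosomes, the acidic compartments in which a cell breaks down protein. Cathepsins B and L are cysteine proteases of the papain family: both are made as inactive precursors, cathepsin L cuts inside protein chains, and cathepsin B does so too and also removes dipeptides from chain ends. In fish, cathepsins of the egg cut yolk proteins derived from vitellogenin, and cystatins are their natural inhibitors. The earliest embryo runs on messenger RNA laid down by the mother, and its own genome is switched on during the blastula stages covered here.

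Total counts ranged from 4931012 to 20036495 per embryo, with a median of 9853532. Levels are given as CPM, the gene's counts per 1000000 counts of the TMM-normalised library. A level is thus relative to a scaled library size, not a plain share of the embryo's counts, and ratios between embryos depend on that scaling. In AB embryo 1 at 4.25 hpf CTSB had 5414 of 10767896 counts and is given as 835 CPM. The most abundant gene ID held 60.5% of the counts there and 11.3% in AB embryo 6 of that stage. Embryos are whole, so fewer cells of a type and less RNA per cell cannot be told apart. Replicate 2 at 5.25 hpf stood lower on a developmental position score, the mean log2 CPM of 200 genes that rose minus that of 200 that fell from 2.25 to 5.25 hpf, both members left out. The score was 2.74 ± 0.24 in the 6 embryos of replicate 1 and 1.86 ± 0.31 in the 6 of replicate 2 (SD), and at 4.25 hpf it was -0.36 ± 0.19 against -1.37 ± 0.41. None of the 3 macrophage and blood markers that matched an ID passed the count filter.

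CTSB was present in every embryo, at 746 to 18366 counts. In AB at 2.25 hpf the lowest of 6 embryos had 931 CPM, the median was 1017 and the highest had 1064. In TL at the same stage CTSB ran from 130 to 262 CPM with a median of 166. The lowest AB embryo thus stood 3.56 times above the highest TL embryo.

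At 3.25 hpf CTSB ran from 945 to 1223 CPM in AB, with a median of 1105, and from 182 to 287 CPM in TL, with a median of 213. At 4.25 hpf the AB embryos had 835 to 1173 CPM around a median of 989, and the TL embryos 152 to 268 CPM around 207. At 5.25 hpf AB had 628 to 859 CPM with a median of 762, and TL had 132 to 194 CPM with a median of 165. No AB embryo overlapped a TL embryo at any of the 4 stages, and the gap between the lowest AB and the highest TL embryo was 3.11 to 3.56 times. CTSB was chosen for this difference, and the share of all genes without such an overlap was not counted.

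As group means CTSB was 1010 ± 45.1 CPM in AB and 182 ± 56.7 in TL at 2.25 hpf (SD, n = 6 each), a ratio of 5.55. The ratio of the means was 4.87 at 3.25 hpf, 4.75 at 4.25 hpf and 4.54 at 5.25 hpf. In the edgeR fit the log2 fold change, TL minus AB, was -2.49 (SE 0.18), -2.31 (SE 0.15), -2.25 (SE 0.16) and -2.17 (SE 0.15) in stage order. These are the values for which the gene was chosen. At these stages 17.8%, 15.7%, 20.4% and 10.7% of all genes tested differed between strains at an adjusted p under 0.05.

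**Figure D1:**
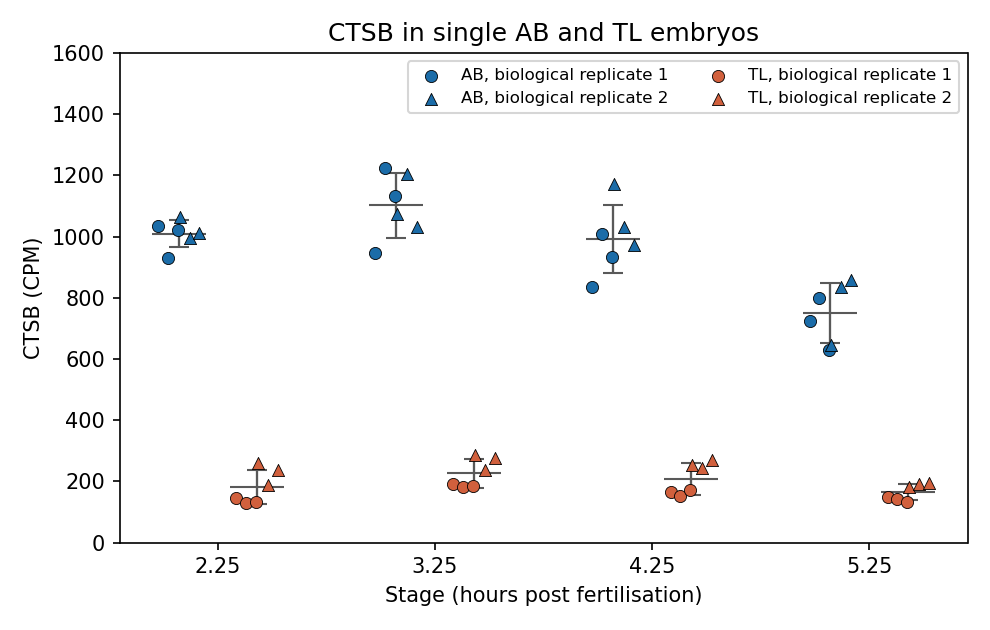
CTSB in CPM (vertical axis, from 0) in each of 48 embryos by stage in hours post fertilisation, with AB in blue and TL in orange, circles for biological replicate 1 and triangles for replicate 2, and bars for the mean ± SD of 6 embryos. AB embryos lie between 628 and 1223 CPM and TL embryos between 130 and 287, with the TL triangles above the TL circles at every stage.

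Ordered by mean level, the 8 groups ran from AB at 3.25 hpf (1102 ± 106 CPM) through AB at 2.25 hpf, AB at 4.25 hpf (992 ± 112) and AB at 5.25 hpf (749 ± 97.9) to TL at 3.25 hpf (226 ± 47.0), TL at 4.25 hpf (209 ± 51.8), TL at 2.25 hpf and TL at 5.25 hpf (165 ± 27.3). Neighbours within a strain overlapped, including AB at 4.25 and 5.25 hpf, where the lowest 4.25 hpf embryo at 835 CPM lay under the highest 5.25 hpf embryo at 859 CPM. In both strains the mean was highest at 3.25 hpf and lowest at 5.25 hpf.

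With both replicates of a group pooled, the spread of CTSB between embryos was narrower in AB. Its coefficient of variation was 4.47%, 9.63%, 11.3% and 13.1% in AB from 2.25 to 5.25 hpf, and 31.1%, 20.8%, 24.8% and 16.6% in TL. Within a replicate this did not hold at every stage. At 4.25 hpf the replicates had 925 ± 86.3 and 1058 ± 104 CPM in AB and 162 ± 9.95 and 255 ± 12.4 in TL (SD). At 5.25 hpf they had 717 ± 86.2 and 781 ± 116 in AB and 141 ± 8.19 and 189 ± 6.57 in TL. Relative to the mean, the spread was there wider in AB in both replicates. At 2.25 hpf it was wider in TL in both, and at 3.25 hpf in replicate 2 alone. The wider TL spread of the pooled groups went with the biological replicate. In TL at 2.25 hpf the 3 embryos of replicate 1 had 144, 130 and 131 CPM, and the 3 of replicate 2 had 262, 188 and 237 CPM.

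The same order held in TL at the other stages. Replicate means of CTSB in TL were 135 and 229 CPM at 2.25 hpf, 186 and 266 at 3.25 hpf, 162 and 255 at 4.25 hpf and 141 and 189 at 5.25 hpf, without overlap between replicates at any stage. Each stage set 3 embryos against 3, where a gap can arise by chance. The share of all genes without such an overlap was not counted. In AB the replicates overlapped at every stage, and replicate 2 was 1.03, 1.00, 1.14 and 1.09 times replicate 1 in stage order. In TL these ratios were 1.69, 1.43, 1.57 and 1.34.

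Averaged over both strains, CTSB was higher in replicate 2 at 4.25 hpf by 0.41 log2 (SE 0.11, edgeR adjusted p = 0.0335), in a comparison in which 5.72% of genes were called. At 2.25, 3.25 and 5.25 hpf the differences were 0.39, 0.27 and 0.27, with edgeR adjusted p of 0.0907, 0.308 and 0.176, where 6.89%, 1.1% and 11.7% of genes passed. The 4.25 hpf call was kept in 5 of 12 fits that left out 1 embryo, and the edgeR adjusted p over those fits ran from 0.0277 to 0.0951. With the developmental position score of each embryo as a further term, the 4.25 hpf difference was 0.01 (edgeR adjusted p = 0.995). The score itself did not overlap between replicates, at -0.70 to -0.13 in replicate 1 and -1.97 to -0.80 in replicate 2. That fit can therefore hardly tell score and replicate apart, and the part of the score in the replicate difference was not tested.

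A comparison added after these values were seen asked whether the strain difference of CTSB depended on the replicate. Averaged over the 4 stages, the TL minus AB difference was 0.50 log2 smaller in size in replicate 2 than in replicate 1 (SE 0.09, edgeR adjusted p = 0.0034), and 0.564% of genes passed that test. Embryos are its units, so this p measures scatter between embryos within a replicate. It does not measure variation between biological replicates, of which each strain had only 2. The single-stage differences were 0.73, 0.51, 0.46 and 0.33, all in the same direction, and none passed (edgeR adjusted p of 0.427, 0.841, 0.291 and 1.00), where 0.106%, 0.0751%, 0.315% and 0% of genes did. Within replicate 1 the strain difference was -2.88 at 2.25 hpf, -2.59 at 3.25 hpf and -2.53 at 4.25 hpf, and within replicate 2 at 2.25 hpf it was -2.17. CTSB was thus lower in TL in both replicates.

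**Figure D2:**
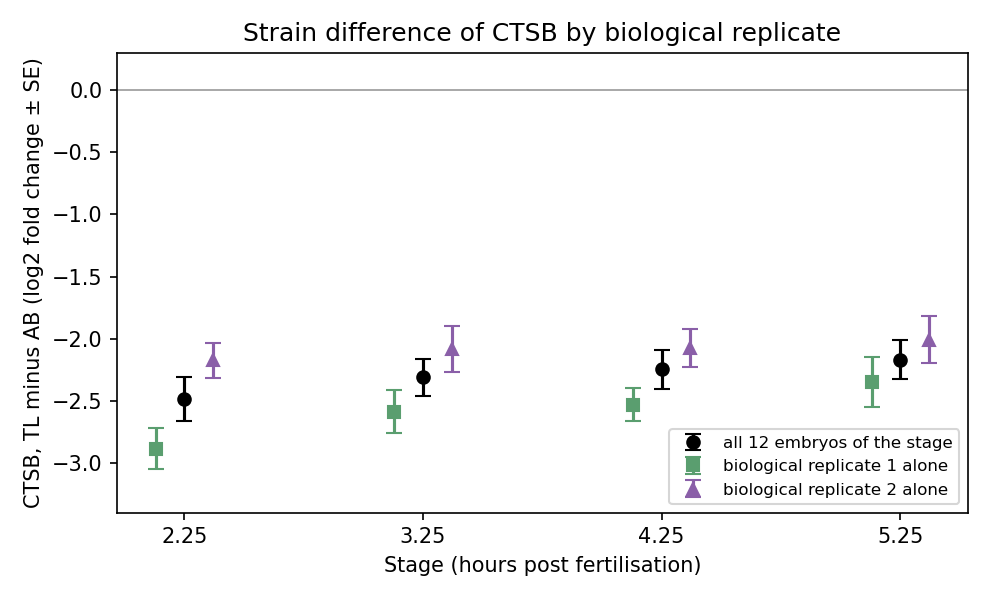
TL minus AB difference of CTSB (log2 fold change ± SE, vertical axis) by stage, from all 12 embryos (black), from biological replicate 1 alone (green squares) and from replicate 2 alone (purple triangles). All 12 values lie between -2.88 and -2.01, and the replicate 1 value is the lowest at each stage.

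With time, CTSB changed little beside the distance between strains. From 2.25 to 3.25 hpf it moved by 0.22 log2 (SE 0.11, edgeR adjusted p = 0.437) and from 3.25 to 4.25 hpf by -0.13 (SE 0.11, edgeR adjusted p = 0.47), and neither step passed, where 1.8% and 16.4% of genes did. From 4.25 to 5.25 hpf it fell by 0.37 (log2, SE 0.11, edgeR adjusted p = 0.00442), and over the whole span from 2.25 to 5.25 hpf it fell by 0.29 (SE 0.11, edgeR adjusted p = 0.0234). Of all genes 42.5% and 51.9% changed in those 2 comparisons, and 22.2% and 26.1% fell.

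The fall of CTSB did not pass in each subset or setting. In TL alone the last step was -0.31 (edgeR adjusted p = 0.216) and the span -0.13 (edgeR adjusted p = 0.615). The span also missed the threshold without replicate 2, at -0.18 (edgeR adjusted p = 0.126), and with DESeq2 size factors, at -0.21 (edgeR adjusted p = 0.103). The change over the span differed between strains by 0.29 (TL minus AB, SE 0.22, edgeR adjusted p = 0.85), which did not pass, and 0.352% of genes did.

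For ctsll the first 2 stages held almost no counts. At 2.25 hpf 10 of 12 embryos had 0 counts and the other 2 had 1 count each, 1 in AB and 1 in TL. At 3.25 hpf 10 of 12 embryos again had 0, 1 AB embryo had 1 count and TL embryo 6 had 7 counts, or 1.26 CPM. A count of 0 allows up to 3 counts, so ctsll was not detectable at this depth in most embryos of these stages. The TL embryo with 7 counts stood apart from all the others.

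At 4.25 hpf the AB embryos had 10, 32, 37, 1, 11 and 14 counts of ctsll, or 1.54, 4.77, 3.05, 0.12, 0.97 and 1.08 CPM in embryo order. The TL embryos had 2, 1, 3, 0, 0 and 2 counts. AB was higher in all but embryo 4, whose single count fell within the TL range. At 5.25 hpf every embryo had ctsll: AB had 146, 273, 137, 32.3, 99.8 and 17.5 CPM, and TL had 87.2, 34.1, 101, 5.01, 14.8 and 33.2 CPM. Each 5.25 hpf embryo lay above every 4.25 hpf embryo.

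The group means of ctsll were 1.92 ± 1.70 CPM in AB and 0.158 ± 0.173 in TL at 4.25 hpf, and 118 ± 92.6 and 45.9 ± 39.2 at 5.25 hpf (SD, n = 6 each). In order of level, AB at 5.25 hpf came first, followed by TL at 5.25 hpf and AB at 4.25 hpf, and the highest of the remaining 5 groups, TL at 3.25 hpf, averaged 0.211 CPM. The 2 groups of 5.25 hpf overlapped, and AB at 4.25 hpf overlapped with TL at 3.25 and 4.25 hpf. Its lowest embryo had 1 count, as did the highest embryo of each of the other 3 groups under it. Those embryos differed in CPM by library size alone. At 5.25 hpf the coefficient of variation was 78.8% in AB and 85.4% in TL, and the highest embryo was 15.6 times the lowest in AB and 20.2 times in TL.

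From 4.25 to 5.25 hpf the summed counts of ctsll over 12 embryos gave a ratio of 84.6 (95% interval 70.3 to 103, counting error only), 63.1 in AB and 357 in TL, where 4.25 hpf had 8 counts. From 2.25 to 4.25 hpf the ratio was 65.2, with a wide interval of 17.6 to 545 because 2.25 hpf had only 2 counts. From 3.25 to 4.25 hpf the ratio was 126 in AB, with 105 counts against 1. In TL it was 1.32, with 8 counts against 7 (95% interval 0.418 to 4.27, counting error only). All 7 of these TL counts came from embryo 6, so the TL ratio rests on that embryo. From 2.25 to 4.25 hpf the TL ratio was 9.27, with 8 counts against 1 (95% interval 1.24 to 411, counting error only). Whether the strains differed in these steps was not tested. Averaged over both strains, the fitted change of ctsll was 1.08 log2 from 2.25 to 3.25 hpf, 3.21 from 3.25 to 4.25 hpf and 7.11 from 4.25 to 5.25 hpf. These describe the rise for which the gene was chosen, and 42.5% of genes changed in the last step.

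**Figure D3:**
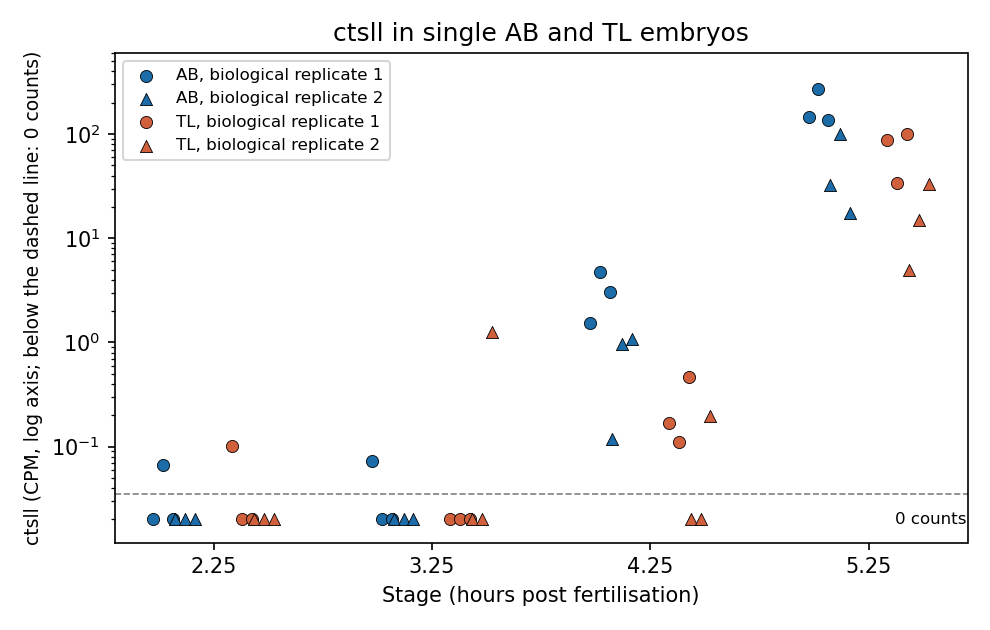
ctsll in CPM (vertical log axis, embryos with 0 counts drawn under the dashed line) in each of 48 embryos by stage in hours post fertilisation, AB in blue and TL in orange, circles for biological replicate 1 and triangles for replicate 2. At 5.25 hpf all embryos lie between 5.01 and 273 CPM, with replicate 1 circles above replicate 2 triangles within each strain.

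Between strains ctsll was lower in TL at 4.25 hpf. The count filter left the gene out of the edgeR fit of that stage, so the CPM values were compared by a two-sided exact permutation test, chosen after the values were seen. The TL mean was lower by a log2 ratio of -3.61 (exact permutation p = 0.00866 over 924 labellings, of which the smallest possible is 0.00216), and within biological replicates the exact permutation p was 0.01 over 400 labellings. The summed counts of 105 in AB and 8 in TL gave a ratio of 13.2 (95% interval 6.46 to 31.4, counting error only). Of the 6 AB embryos, 5 stood above the highest TL embryo. No TL embryo had more than 3 counts, so the size of the ratio is uncertain. The exact permutation p is not adjusted over genes, and 20.4% of the genes tested by edgeR differed between strains at this stage. Neither biological replicate alone passed, where 3 embryos against 3 cannot reach 0.05.

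At 5.25 hpf the strain difference of ctsll was -1.35 log2 (SE 0.64, edgeR adjusted p = 0.20) and did not pass, and the groups overlapped. With biological replicate as a block the difference was -1.38 (SE 0.43, edgeR adjusted p = 0.0382) and passed. On sums over the 3 embryos of each biological replicate it was -1.35 (edgeR adjusted p = 0.47) and did not, nor did it in the other edgeR and DESeq2 alternatives run besides the block. An exact permutation test gave p = 0.0996 over all 924 labellings and 0.015 within biological replicates, neither of them adjusted over genes. Whether ctsll rose by a different factor in the 2 strains from 2.25 to 5.25 hpf could not be resolved, since the difference was -1.35 with an SE of 4.22 (edgeR adjusted p = 0.993).

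ctsll also differed between biological replicates. At 5.25 hpf the mean in AB was 185 CPM in replicate 1 and 49.9 in replicate 2, and in TL it was 74.2 and 17.7, without overlap in either strain. As for CTSB, the share of all genes without such an overlap was not counted. Replicate 2 minus replicate 1 was -1.97 log2 (SE 0.44, edgeR adjusted p = 0.00852), and all 12 fits without 1 embryo kept the call, where 11.7% of genes were called. At 4.25 hpf the difference was -1.96 (edgeR adjusted p = 0.11) and did not pass. At 4.25 hpf CTSB, by contrast, was higher in replicate 2, as given above.

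Other measures moved with the ctsll replicate difference. The position score at 5.25 hpf was lower in replicate 2, as given above, and with that score as a term the difference of ctsll was -0.62 (edgeR adjusted p = 0.784). The score ran from 2.43 to 3.11 in replicate 1 and from 1.46 to 2.22 in replicate 2, without overlap. That fit can therefore hardly tell score and replicate apart, and the part of the score was not tested. The summed level of 15 enveloping layer markers, the genes of the outer covering of the blastoderm, ranged from 5987 to 8700 CPM in AB replicate 1 and from 1739 to 3049 in AB replicate 2, and from 4773 to 6556 and from 1723 to 2481 in TL. All 15 were detected in AB and 14 in TL at that stage. Of the 13 tested enveloping layer markers 10 were called lower in replicate 2 and 0 higher, where 6.17% of all genes were lower. All 13 also rose from 2.25 to 5.25 hpf, where 25.8% of all genes rose, so they are not measures apart from the position score. The share called lower in replicate 2 among genes that rose with stage was not counted.

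The summed level of 9 markers of the yolk syncytial layer, which borders the yolk, overlapped between replicates, with 261 to 396 CPM in AB replicate 1 and 210 to 366 in AB replicate 2, and 257 to 357 against 230 to 280 in TL. Gene by gene, 3 of the 6 tested were called lower in replicate 2 and 0 higher, with a median of -0.88 log2 against -0.0004 over all genes. For this count and those below, 6.17% of all genes were called lower. The sum of 6 markers of dorsal forerunner cells and endoderm did not overlap, at 467 to 607 CPM in AB replicate 1 against 221 to 405 in AB replicate 2 and 534 to 636 against 278 to 316 in TL, and 5 of 6 were called lower. The sum of 7 hatching gland and prechordal plate markers, 3 of them at 0 in both strains, did not overlap either, at 315 to 381 CPM against 224 to 303 in AB and 348 to 427 against 250 to 306 in TL, and 2 of the 4 tested were called lower. Of these markers klf17 is also on the enveloping layer list, and he1.2 and ctslb had 0 counts in all embryos. This sum is therefore not separate from the enveloping layer sum and is no measure of hatching gland alone. Within a strain each sum set 3 embryos against 3, where a gap can arise by chance. Most of these markers also rose from 2.25 to 5.25 hpf. Of those tested, 5 of 6 of the yolk syncytial layer, 6 of 6 of dorsal forerunner cells and endoderm and 4 of 4 of the hatching gland list did. They are therefore not measures apart from the position score either. The part of these cell types in the ctsll difference was not tested.

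Beside the ctsll strain difference at 4.25 hpf, marker sums and the position score differed within replicate 2. There the enveloping layer sum ranged from 312 to 470 CPM in AB and from 211 to 255 in TL, the dorsal forerunner and endoderm sum from 42.7 to 47.9 against 26.5 to 31.5, and the hatching gland sum from 123 to 172 against 71.2 to 91.1, each without overlap. The yolk syncytial layer sum overlapped, at 71.4 to 96.9 against 53.2 to 80.4. The position score of replicate 2 ran from -1.23 to -0.80 in AB and from -1.97 to -1.52 in TL. Within a replicate each of these comparisons set 3 embryos against 3, where a gap can arise by chance. Gene by gene over all 12 embryos, 2 of 8 tested enveloping layer markers and 1 of 3 hatching gland markers were called lower in TL. Of the dorsal forerunner and endoderm markers 0 of 4 were, and of the yolk syncytial layer markers 0 of 4. None of these markers was called higher, and 10.2% of all genes were lower. As given above, most of the tested markers rose with stage.

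Within replicate 1 at 4.25 hpf the enveloping layer sum overlapped, at 414 to 689 CPM in AB and 522 to 650 in TL, and so did the yolk syncytial layer and hatching gland sums and the position score, at -0.70 to -0.13 and -0.37 to -0.29. The dorsal forerunner and endoderm sum was there higher in TL, at 83.2 to 102 against 49.4 to 78.7. The mean of ctsll was lower in TL in both replicates, at 3.12 CPM in AB and 0.249 in TL in replicate 1 and 0.720 and 0.0663 in replicate 2. At 5.25 hpf the position scores of the strains overlapped within each replicate, and with the score as a term the strain difference of ctsll was -1.07 (edgeR adjusted p = 0.0647). The part of the markers in the strain difference was not tested.

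By Pearson correlation of log2 CPM over the 48 embryos, the 5 genes most like CTSB were zgc:171699 (0.966), si:dkeyp-98a7.4 (0.966), PHB2 (0.964), si:dkey-20i20.14 (0.958) and ERO1A (0.956). Like CTSB they were high in AB and low in TL at every stage. Mean CPM of zgc:171699 was 75.4 in AB and 1.65 in TL at 2.25 hpf. The 5 genes most like ctsll were pitpnc1b (0.964), SLC26A1 (0.963), zgc:193505 (0.962), si:dkey-221l21.2 (0.957) and PTGS2 (0.956). SLC26A1 is on the yolk syncytial layer marker list, with means of 0 CPM in both strains at 2.25 hpf and of 7.79 in AB and 5.83 in TL at 5.25 hpf. All 48 values share the strain and stage groups, so these coefficients describe the shared pattern and carry no test.

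The other cathepsins were measured in the same embryos. The gene table held 19 cathepsin IDs, 16 of which passed the count filter in the fit of 48 embryos. ctslb and ctslb.4 had 0 counts in all embryos and ctsbb, the second cathepsin B gene, had 6 in all. Reads could have been shared between cathepsin L type genes if they are alike in sequence. Their sequences were not compared and such sharing was not tested, so their counts are uncertain to that extent.

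From 4.25 to 5.25 hpf 7 of the 16 cathepsins rose and 2 fell, where 20.3% of all genes rose and 22.2% fell. The median change of the 16 was 0.31 log2, against -0.02 over all genes. ctsll is among the 7 by the choice described above. CTSH, also among the 7, had 258 counts in all, in 20 of 48 embryos. It passed the count filter through its level at 5.25 hpf, so its rise was partly built into its being tested. Over the span from 2.25 to 5.25 hpf 7 rose and 3 fell, against 25.8% and 26.1% of all genes. ctsll and CTSH are again among those that rose over the span.

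Over that span ctsla, a cathepsin L, rose from 258 ± 45.4 to 602 ± 93.9 CPM in AB and from 314 ± 55.9 to 660 ± 84.8 in TL (SD, n = 6 each; 1.15 log2, edgeR adjusted p = 2.24e-15). CTSC, which removes dipeptides and activates other proteases, rose by 1.24 (edgeR adjusted p = 1.78e-07). CTSH, an aminopeptidase, rose by 5.49 from near 0, reaching 1.52 ± 1.15 CPM in AB and 3.68 ± 3.74 in TL. CTSO rose by 1.48, CTSA, which protects other lysosomal enzymes, by 0.66, and CTSD, an aspartic protease, by 0.26. ctss2.1, a cathepsin S gene, fell from 2471 ± 343 to 1269 ± 178 CPM in AB and from 2542 ± 306 to 1498 ± 134 in TL (-0.86 log2, edgeR adjusted p = 7.99e-15), as did CTSB and cts12.

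Among the other cathepsins, cts12 had means of 12.7, 11.3, 9.01 and 4.38 CPM in AB from 2.25 to 5.25 hpf. In TL its means were 0.403, 0.253, 0.212 and 0.285 CPM. It passed the count filter through the AB embryos, so a lower level in TL was partly built into its being tested. It was lower in TL at each stage, with TL minus AB at -5.05, -5.47, -5.28 and -4.01 log2 (edgeR adjusted p of 2.14e-05, 4.75e-06, 1.8e-06 and 0.00124). CTSC was higher in TL at 3.25 hpf (0.95, edgeR adjusted p = 0.00289) and 4.25 hpf (1.23, edgeR adjusted p = 0.000728), and ctsf was higher in TL at 5.25 hpf (1.51, edgeR adjusted p = 0.0183). Of the 12, 11, 10 and 14 cathepsins tested at the 4 stages, 2 were lower in TL each time, CTSB and cts12, and 0, 1, 1 and 1 were higher. CTSB is among the 2 by the choice described above, and cts12 passed the filter through AB, so the count of 2 is a description. Of all genes 9.64%, 8.46%, 10.2% and 5.46% were lower in TL and 8.18%, 7.2%, 10.2% and 5.21% higher. ctss2.1 and ctsla did not pass at any stage.

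**Figure D4:**
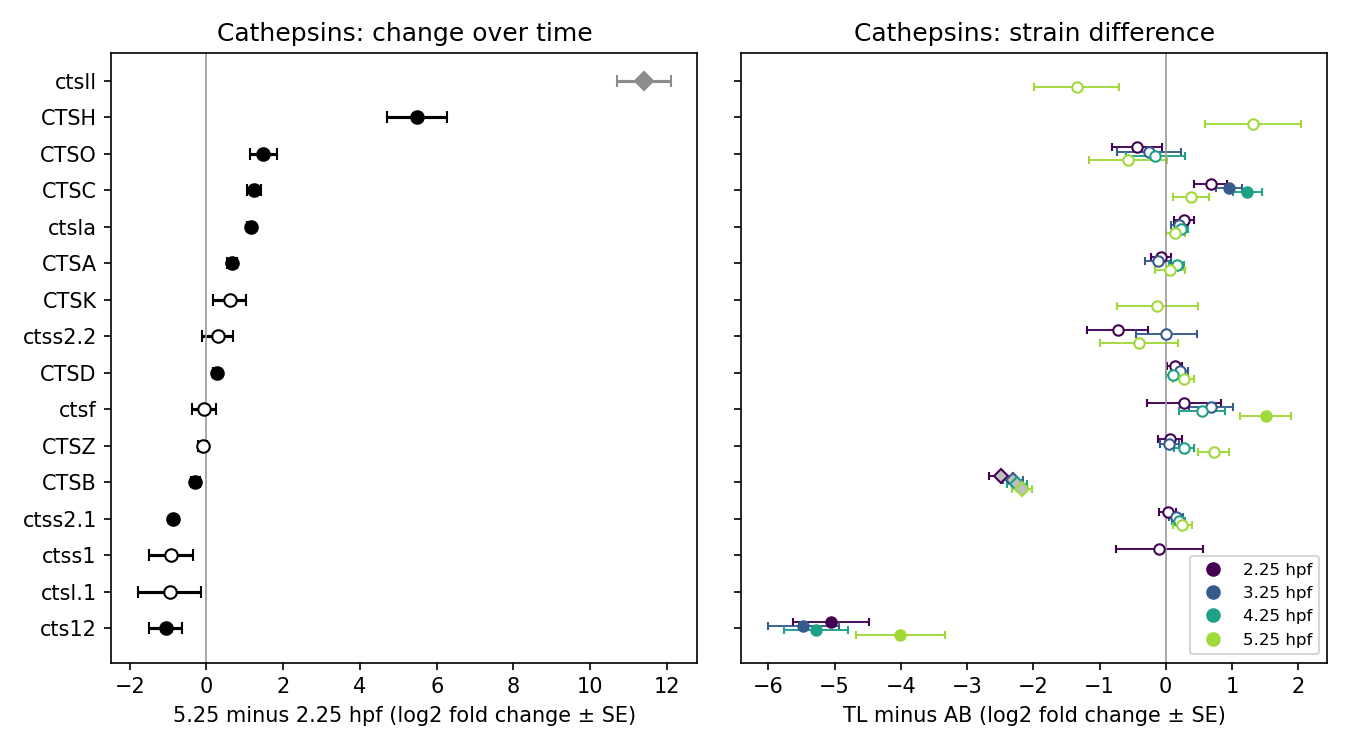
Left, change of 16 cathepsins from 2.25 to 5.25 hpf (log2 fold change ± SE); right, TL minus AB difference (log2 fold change ± SE) at each stage, for those tested. Filled circles passed an adjusted p under 0.05, open circles did not, and diamonds are values for which CTSB or ctsll was chosen. cts12 and CTSB lie at the left of the right panel and ctsll at the right of the left panel.

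Among the inhibitors, 3 of 5 cystatin IDs were tested. cst3, a cystatin C, rose from 49.9 ± 14.7 to 377 ± 110 CPM in AB and from 56.0 ± 23.8 to 498 ± 98.0 in TL (3.04 log2, edgeR adjusted p = 5.35e-19). Neither cst14a.1 nor cst14a.2 passed with stage, and none of the 3 passed between strains at any stage.

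Genes that sort or activate lysosomal enzymes and the other lysosomal genes moved in both directions. Of 9 sorting and activation genes, 1 rose and 2 fell from 2.25 to 5.25 hpf, against 25.8% and 26.1% of all genes: LGMN, a protease that activates cathepsins, rose by 0.55, while M6PR, the receptor that carries tagged enzymes to lysosomes, fell by 1.53 and HSP90B1, an endoplasmic reticulum chaperone, fell by 0.52. NAGPA, which uncovers the mannose 6-phosphate tag, was lower in TL, with TL minus AB at -4.02 log2 at 2.25 hpf, -3.18 at 3.25 hpf and -3.95 at 4.25 hpf (edgeR adjusted p of 0.000145, 0.0106 and 8.39e-06). CLN8, which helps carry new lysosomal enzymes out of the endoplasmic reticulum, was higher in TL by 0.64 at 2.25 hpf, 0.80 at 4.25 hpf and 0.88 at 5.25 hpf. gnptg was lower in TL at 4.25 hpf (-0.47, edgeR adjusted p = 0.019), and NAGPA was not tested at 5.25 hpf. Of the 9, 9, 9 and 8 genes tested in stage order, 1, 0, 1 and 1 were higher in TL and 1, 1, 2 and 0 lower. Of all genes 8.18%, 7.2%, 10.2% and 5.21% were higher and 9.64%, 8.46%, 10.2% and 5.46% lower.

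Of 21 genes of the lysosome membrane and hydrolases, 3 rose and 7 fell from 2.25 to 5.25 hpf, against 25.8% and 26.1% of all genes, with a median of -0.30 log2 against -0.01 over all genes. The 10 called of 21 were near the 51.9% called among all genes. CD63, a lysosomal membrane protein, rose by 2.44 and GUSB, a glucuronidase, by 1.06, while ATP6V1H, a subunit of the proton pump, fell by 1.70 and atp6ap1b, another pump component, by 0.95. At 2.25 hpf 2 of 19 were higher and 4 lower in TL, against 8.18% and 9.64% of all genes, with GLA (0.84) and LAMP2 (0.83) higher and CD63 (-2.13) and GUSB (-1.43) lower. At the later stages 2 of 19, 2 of 19 and 0 of 17 were higher in TL, against 7.2%, 10.2% and 5.21% of all genes. In the same order 2, 3 and 3 were lower, against 8.46%, 10.2% and 5.46% of all genes. TFEB, a regulator of lysosomal genes, rose by 1.44 over the span (edgeR adjusted p = 0.00133). Between strains it was higher in TL at 4.25 hpf by 1.42 (edgeR adjusted p = 0.0489) and did not pass at 5.25 hpf.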

How the data were processed

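The authors deposited unnormalised counts for each Ensembl gene in 48 embryos, in 1 table per stage. Per the submitters' processing notes the tools were bcl2fastq 2.19.0.316, STAR 2.7.1a and edgeR 3.26.8; the counter, genome build, annotation, strand setting and treatment of molecular identifiers are not given in the sources used here, so counts may include several reads of 1 molecule, and intervals cover counting error only. A symbol was found for 29201 of 32520 IDs.

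Strains were compared within each stage (12 embryos) and stages in 1 fit of 48 embryos (14470 genes) by the quasi-likelihood F test in edgeR 4.0.16 (limma 3.58.1 under R 4.3.3) after filterByExpr and TMM, with Benjamini-Hochberg adjustment over all genes and calls at 0.05. ctsll at 4.25 hpf fell under the filter and was compared by an exact permutation test, whose p is not adjusted over genes. DESeq2 1.42.0 was an alternative. Scripts were tested on simulated counts. The members and lists were chosen with earlier results of these data known. Among the list genes, any tested cathepsin or cystatin and the 2 largest called changes in each direction of the other lists could be named, and the 5 genes most like each member by Pearson correlation.

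The labels tie each biological replicate to its own sequencing runs, so replicates 1 and 2 pair the strains. The deviations of AB and TL replicates correlated at 0.259, 0.221, 0.164 and 0.457 over genes at the 4 stages. Embryos are the replicates of every p-value, except in the fits on sums over 3 embryos, where each biological replicate is 1 unit. The p-values that compare biological replicates thus measure scatter between embryos within a replicate. The labels do not say whether the 3 embryos of 1 biological replicate share parents.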

Additional observations from a re-analysis of the deposited data

Results flagged for a closer look

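In 4 of the 16 groups examined (2 genes in 8 groups), 1 embryo stood far from the other 5 for ctsll: AB at 2.25 hpf embryo 2 (0.0662 CPM), AB at 3.25 hpf embryo 1 (0.0725 CPM), TL at 2.25 hpf embryo 1 (0.103 CPM) and TL at 3.25 hpf embryo 6 (1.26 CPM). In each of these groups the other 5 embryos had 0 counts, so that any count sets an embryo apart; the first 3 had 1 count each and the last had 7. Chance alone sets an embryo apart in about 1 in 20 groups, but that rate does not hold for groups with counts this near 0.

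The strain difference of CTSB differed between the biological replicates by 0.50 log2 over the mean of 4 stages. The comparison was added after the values by embryo were seen.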

How the results depend on the processing

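Over 343 alternatives of the results on CTSB and ctsll, 307 kept direction and call, 22 lost and 4 gained the call, 10 moved a described value by more than its spread and 0 reversed a call. The cause of each change was not tested, except that sums and single strains use fewer samples. The CTSB fall from 4.25 to 5.25 hpf lost its call in TL alone (-0.31) and on sums over 3 embryos (-0.37). The fall from 2.25 to 5.25 hpf lost it with DESeq2 size factors (-0.21), DESeq2 (-0.21), TL alone (-0.13), and sums (-0.27), and ran from -0.33 without replicate 1 to -0.18 without replicate 2.

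The CTSB strain difference at 2.25 hpf was -2.88 without replicate 2, -2.17 without replicate 1 and -2.12 with the position score as a term; leaving out replicate 2 or 1 gave -2.59 and -2.08 at 3.25 hpf and -2.53 and -2.07 at 4.25 hpf. The CTSB replicate difference at 2.25 hpf passed with DESeq2 (0.39) and in 1 fit of 48 embryos (0.40), and at 4.25 hpf missed in AB alone (0.19) and with the position score (0.012); fits without 1 embryo gave 0.37 to 0.47. Its dependence on strain passed at 2.25 hpf with DESeq2 (0.74).

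The ctsll change from 2.25 to 3.25 hpf was -0.80 without replicate 2 and 2.2 without replicate 1. It was 5.29 (without replicate 2), 2.07 (without replicate 1), 6.14 (AB alone) and 0.25 (TL alone) from 3.25 to 4.25 hpf, and 8.28 from 4.25 to 5.25 hpf in TL alone. Its strain difference at 4.25 hpf missed without replicate 1 (-3.44, exact permutation p = 0.2) and without replicate 2 (-3.65, p = 0.1, the smallest exact permutation p that 3 against 3 allows), and on sums over 3 embryos (-3.77), while leaving out 1 embryo gave -4.33 to -3.10. At 5.25 hpf it passed with the replicate block (-1.38), and the block changed no other call on the pair. The ctsll replicate difference at 5.25 hpf missed in AB alone (-1.90), TL alone (-2.03) and with the position score (-0.62).

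Counts of called genes moved by over 1.5 times under some settings. They ran from 873 to 2699, 848 to 2419, 492 to 2883 and 91 to 2640 for strain at the 4 stages (2129, 1875, 2435 and 1238 as reported), from 55 to 364, 685 to 2677 and 3524 to 6442 for the 3 steps (261, 2375 and 6152), and from 1 to 102 for the difference in change between strains (51). For the replicates they ran from 46 to 1635, 0 to 619, 9 to 1394 and 0 to 2422 (913, 146, 764 and 1532), and for strain by replicate averaged over stages from 89 to 249 (88).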

Other observations

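In the RefSeq gene order of assembly GRCz12tu, used for order only, 12 protein-coding genes lay within 6 places of CTSB (listed there as ctsba), of which 6 matched an ID and 5 were tested. cenpf was lower in TL at all 4 stages (-1.34, -1.27, -1.55 and -1.19 log2, edgeR adjusted p of 0.000121 to 0.00258), gcfc2 at 2.25, 3.25 and 4.25 hpf (-0.62, -0.44 and -0.51), grhl1 at both stages where it was tested (-1.78 at 4.25 hpf and -1.68 at 5.25 hpf) and ywhaqb at 4.25 hpf (-1.24), while xkr5b passed at none. Around ctsll 12 genes gave 8 matches, 7 of them tested. trmt2a was higher in TL from 3.25 hpf on (0.56, 0.56 and 0.73), znf703 at 4.25 hpf (1.05), and phf23a was lower at 2.25 hpf (-0.65). In stage order 9.64%, 8.46%, 10.2% and 5.46% of all genes tested were lower in TL, and 8.18%, 7.2%, 10.2% and 5.21% higher. Whether neighbouring genes differed together was not tested.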
